A study of Saccharomyces cerevisiae with 24 samples.

Results

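The 60 genes described here encode assembly factors of the large (60S) ribosomal subunit of budding yeast, together with factors that carry the unfinished subunit out of the nucleus. They were chosen by name, as listed 60S assembly and export factors with the RNA helicases left out. All 60 were found among the 5449 genes of the array, each by 1 probe set. All 60 stood above array background on each of the 24 arrays, and all were among the 5395 genes that were tested. The arrays measured total RNA of Saccharomyces cerevisiae from 4 strains at 2 times, with 3 cultures of each strain. The strains were a double deletion lacking both PBF1 and PBF2, a pbf2 deletion, a pbf1 deletion, and their wild type BY4741. BY4741 is an a-type laboratory haploid that carries deletions in HIS3, LEU2, MET17 and URA3 as nutritional markers, and the labels name no background for the deletion strains. Each culture grew at 25 °C, and a portion was taken at 0 min. The rest was shifted to 37 °C and taken at 20 min, so that heat shock and time are the same contrast. PBF1 is the older name of TOD6 (YBL054W) and PBF2 that of DOT6 (YER088C), which encode related Myb-type DNA-binding proteins. The labels do not say how many independent clones stood behind each deletion strain.

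Large subunits are built in the nucleolus around a precursor ribosomal RNA. Assembly factors join and leave in order: early factors fold the RNA, enzymes modify and cut it, and GTPases and AAA ATPases drive later rearrangements. Export factors then take the particle to the cytoplasm, where the last of them are released and recycled. Yeast lowers the transcripts of these genes together under stress, and many of their promoters hold the PAC element, which Tod6 and Dot6 bind as repressors. The 60 genes were described in 5 classes by role: 3 rRNA methyltransferases, 9 factors of the Nop7 complex and of spacer processing, 22 early nucleolar factors, 16 nuclear factors around the GTPases, AAA ATPases and the Rix1 complex, and 10 export and cytoplasmic factors.

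The deleted genes were read first. TOD6 was below background on every double deletion and pbf1 deletion array, against signals of 351 to 575 in the wild type at 0 min. DOT6 was below background on every pbf2 deletion array and on 5 of 6 double deletion arrays, against 778 to 946 in the wild type at 0 min. On the remaining double deletion array, of replicate 2 at 0 min, DOT6 read 11.9 against a background of 10.5. URA3 read 1737 to 1886 in the double deletion at 0 min and lay at background in the other strains, so the double deletion also differs from the others in this marker. The 6 a-cell genes read were above background on all arrays, and 5 of them read lower in the double deletion at 0 min with no overlap. AGA2 read 339 to 441 in the double deletion and 1881 to 2163 in the wild type, and MFA1 1197 to 1247 and 3421 to 3752. AGA2 also lay below the wild type in the pbf1 deletion (1268 to 1606) and the pbf2 deletion (1557 to 1831). STE2 read 4737 to 5103 in the double deletion and 5256 to 5585 in the wild type, BAR1 1095 to 1166 and 1413 to 1593, and STE6 1122 to 1161 and 1308 to 1559. Only MFA2 overlapped between the double deletion and the wild type, with 4500 to 5387 and 5117 to 6187. STE2 in the double deletion overlapped the pbf2 deletion, which read 5022 to 5916. What part these differences have in the results was not tested. Arrays of 1 replicate stood apart from the other pair in the double deletion and in the wild type. Wild type replicate 1 at 20 min had a median log2 signal of the 60 genes of 8.82, against 8.33 and 8.10 on the other wild type arrays at 20 min. Its correlation with those arrays over all genes was 0.980 to 0.988, and theirs with each other was 0.992. Double deletion replicate 3 had correlations of 0.986 and 0.987 with its group at 0 min and of 0.985 and 0.987 at 20 min, against 0.992 between the other arrays at each time. Its median log2 signal of the 60 genes was 10.84 at 0 min, against 11.11 on both other arrays, and 9.80 at 20 min, against 10.27 and 10.08. Counts over the 60 genes that rest on these 3 wild type and double deletion arrays are also given without them where they changed. Class counts and joint calls are not. Only these 3 are meant below by arrays that stood apart. Replicate 1 had the highest 20 min median in 4 of 4 strains. Leaving it out of the wild type alone therefore unbalances the replicate numbers. The median difference from the wild type at 20 min then rose from 0.34 to 0.57 (pbf1 deletion), 0.52 to 0.71 (pbf2 deletion) and 1.47 to 1.64 (double deletion). The arrays give RNA levels per fixed amount of total RNA, so fewer cells with a transcript and less transcript per cell cannot be told apart.

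In the wild type, every one of the 60 genes fell in heat shock. All 60 passed limma's test at an adjusted p of 0.05, where 29.7% of the 5395 genes tested were called lower and 51% higher. The median log2 change of the 60 was -2.07, a level 4.19 times lower at 20 min, with a range of -3.62 to -0.31. The median over all genes tested was 0.27. The fall was at least 2-fold for 54 of the 60, and for 55 without wild type replicate 1 at 20 min. Over all genes tested, the 5th percentile of this log2 change was -1.84 and the 25th -0.36. Median changes by class were -2.62 for the methyltransferases, -2.33 for the Nop7 complex and processing factors, -1.98 for early nucleolar factors, -1.80 for the nuclear factors and -1.89 for export and cytoplasmic factors. The scale of the arrays moves the zero of this contrast: the median of all genes lay between -0.74 with poly(A) spike-in centring and 0.27 as deposited, and all 60 genes fell under each of the 5 scalings.

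The deepest falls in the wild type came from several steps of assembly. NOP13 (YNL175C), for a nucleolar RNA-binding protein, changed by -3.62 ± 0.16 on the log2 scale (SE, adjusted p = 1.9e-14 by limma). NOP7 (YGR103W), the yeast Pescadillo homologue and core of the complex named after it, changed by -3.58 ± 0.14. SDA1 (YGR245C), needed for release of the particle from the nucleus, changed by -3.53 ± 0.20. YVH1 (YIR026C), a phosphatase-family protein that releases the stalk placeholder Mrt4 in the cytoplasm, changed by -3.02 ± 0.11. ERB1 (YMR049C), a partner of NOP7, NUG1 (YER006W), a nuclear GTPase, RRP8 (YDR083W), an rRNA methyltransferase, and URB1 (YKL014C), an early nucleolar factor, followed with -2.87, -2.85, -2.71 and -2.70.

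The fall was smaller in the double deletion. There 52 of the 60 genes fell, 1 rose and 7 did not pass the test, against backgrounds of 30.9% called lower and 48.5% called higher among all genes tested. The median log2 change was -0.88, a level 1.84 times lower, and 24 genes fell at least 2-fold. Over all genes tested, the 5th percentile of the change in the double deletion was -1.49 and the 25th -0.42. Without double deletion replicate 3 at 20 min 46 fell, 16 of them at least 2-fold, and without that replicate at 0 min 52 fell, 29 of them at least 2-fold. The count was 53 without wild type replicate 1 at 20 min. With poly(A) spike-in centring the median was -2.03 in the double deletion, a level 4.08 times lower, and -3.07 in the wild type, a level 8.41 times lower. In the pbf2 deletion 58 of 60 fell and none rose past the test (backgrounds 30.1% lower and 48.4% higher), with a median of -1.48, and in the pbf1 deletion 59 of 60 fell and none rose (backgrounds 30.4% lower and 51.2% higher), with a median of -1.90. On the deposited scale the gene that did not pass in the pbf1 deletion was SSF2, and those in the pbf2 deletion were SSF2 and RSA1. Under every other scaling all 60 fell in the pbf1 deletion, and with quantile normalization all 60 fell in the pbf2 deletion. Taken culture by culture, with same-numbered samples of a strain read as 1 culture, the median response of the 60 genes was -0.80, -0.89 and -0.96 in the double deletion, and -1.68, -2.09 and -2.20 in the wild type. The cultures of these strains did not overlap. The pbf2 deletion cultures read -1.46, -1.60 and -1.49, all above the wild type, and the pbf1 deletion cultures read -1.64, -1.97 and -2.10, overlapping the wild type.

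**Figure D1:**
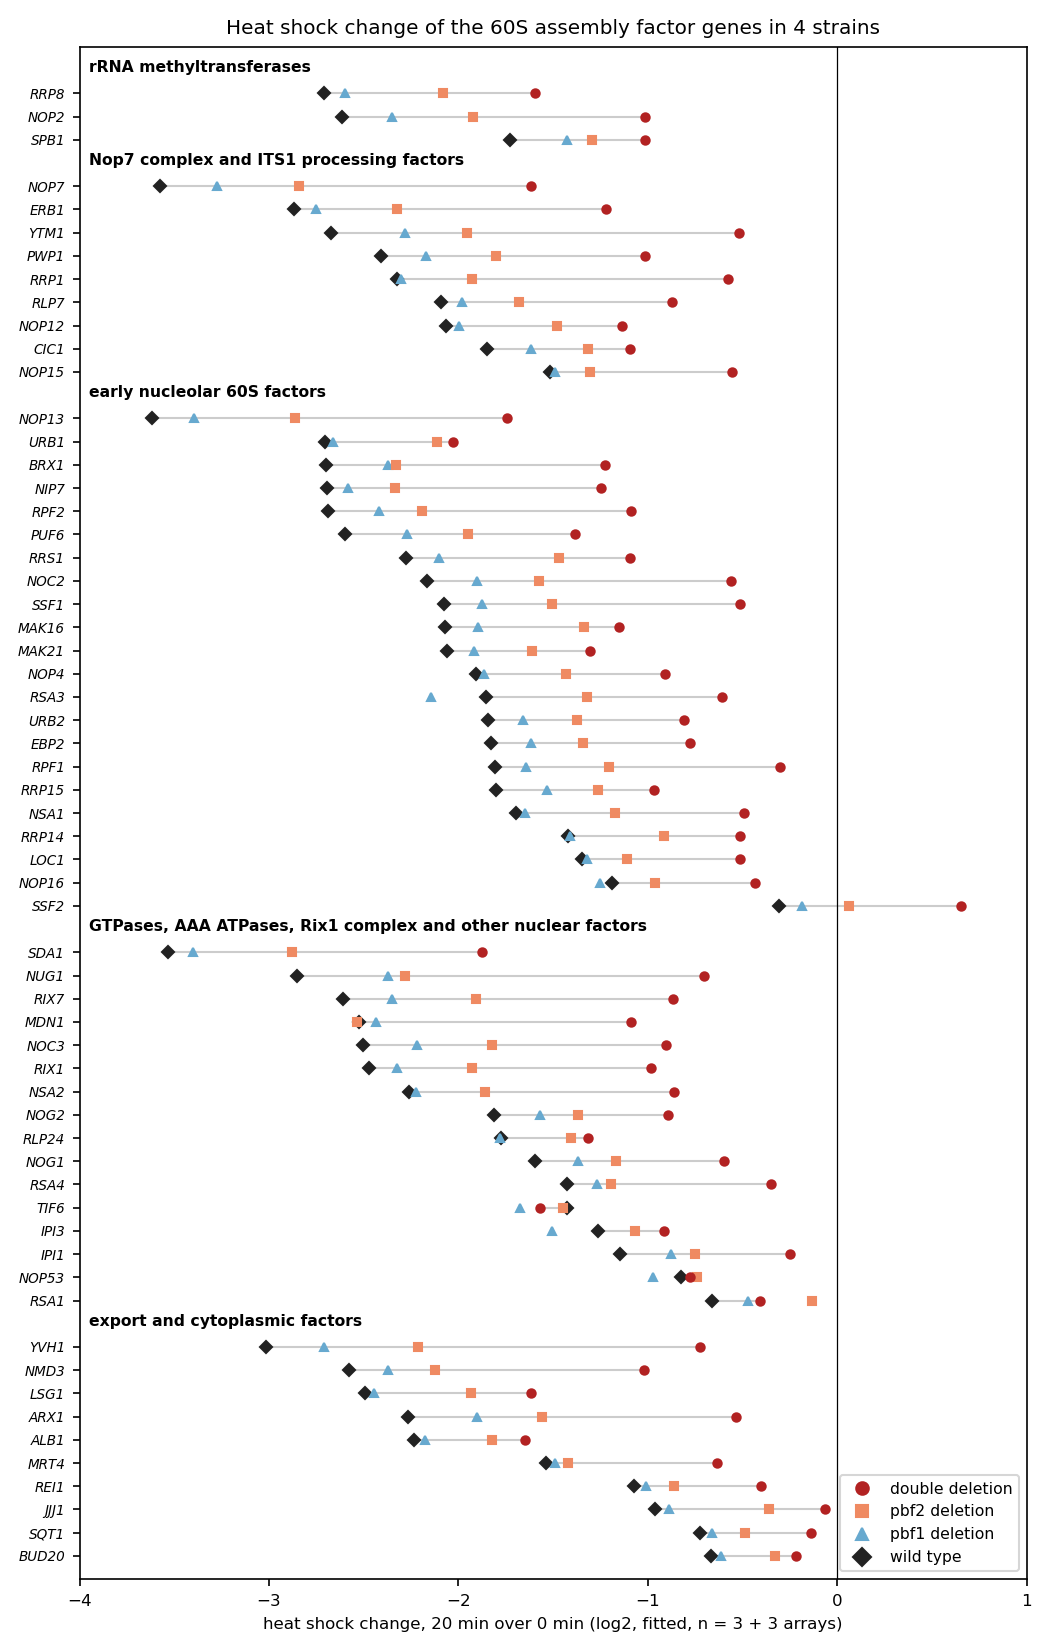
Log2 change in heat shock (20 min over 0 min) of each of the 60 genes, one row per gene grouped by class, with one marker per strain and a grey line joining the double deletion and the wild type. Wild type changes run from -3.62 to -0.31 and double deletion changes from -2.03 to 0.65, and for most genes the double deletion marker lies nearest to 0.

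Several genes that fell most in the wild type were also among those that fell most in the double deletion. URB1 changed by -2.03 ± 0.12 there, SDA1 by -1.88, NOP13 by -1.74, ALB1 (YJL122W), which encodes a partner of the export factor Arx1, by -1.65 ± 0.29 and NOP7 by -1.62. On the deposited scale the 7 genes that did not pass were JJJ1, SQT1, BUD20, IPI1, RSA4, REI1 and SSF1, and 4 of them encode export or cytoplasmic factors. This list depends on the scale: 54 of the 60 fell with quantile normalization, 55 with hybridization control centring and 59 with median or spike-in centring. With median centring JJJ1, SQT1, BUD20, IPI1 and RSA4 were all called lower (adjusted p from 5.5e-05 to 0.047 by limma). The values that follow are on the deposited scale. JJJ1 (YNL227C), a cytoplasmic co-chaperone that helps recycle Arx1, changed by -0.06 ± 0.16 (adjusted p = 0.724 by limma). SQT1 (YIR012W), a chaperone of a ribosomal protein, changed by -0.14 ± 0.08, and passed without double deletion replicate 2 at 20 min (-0.21, adjusted p = 0.0237). The change of BUD20 (YLR074C), a shuttling zinc-finger protein, was -0.22 ± 0.13. IPI1 (YHR085W), of the Rix1 complex, changed by -0.25 ± 0.21, and RSA4 (YCR072C), the docking partner of the AAA ATPase Mdn1, by -0.35 ± 0.28. Across the 60 genes, the double deletion kept a median of 41.5% of the log2 fall seen in the wild type. This share depends on where the scale puts 0: it was 39.4% with quantile normalization, 47.9% with hybridization control centring, 50.8% with median centring and 66.8% with spike-in centring. As deposited, the class medians of this share were 58.8% for methyltransferases, 42.0% for the Nop7 complex and processing factors, 43.2% for early factors, 41.4% for nuclear factors and 34.8% for export and cytoplasmic factors.

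The difference in response itself was tested as the double deletion's heat shock change minus that of the wild type. It was positive and past the test for 50 of the 60 genes and negative and past it for none, where 15% of all genes tested were called higher and 12.8% lower. The median difference was 1.06, a ratio of 2.09 between the responses, and 34 genes differed at least 2-fold. The 95th percentile of this log2 difference over all genes tested was 0.89. The count was 56, with 45 at least 2-fold, when wild type replicate 1 at 20 min was left out. Leaving out double deletion replicate 3 gave 45, with 30 at least 2-fold, for its 0 min array and 52, with 38 at least 2-fold, for its 20 min array. By class, 3 of 3 methyltransferases passed (median 1.12), 8 of 9 Nop7 complex and processing factors (1.40), 22 of 22 early nucleolar factors (1.12), 10 of 16 nuclear factors (1.04) and 7 of 10 export and cytoplasmic factors (0.89). With poly(A) spike-in centring the median was 0.92 and no gene passed the test.

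YVH1 differed most. Its signals at 20 min were 789.8, 725 and 742 in the double deletion, 191, 172 and 191 in the pbf2 deletion, 154, 133 and 136 in the pbf1 deletion, and 118, 84.6 and 88.0 in the wild type. At 0 min they were 1322, 1215 and 1189.8 in the double deletion, 874, 886 and 803 in the pbf2 deletion, 826, 977 and 961 in the pbf1 deletion, and 782, 861 and 692 in the wild type. The double deletion arrays lay above those of every other strain at both times, and at 20 min neither single deletion overlapped the wild type. The response difference from the wild type was 2.29 ± 0.15 (adjusted p = 1.1e-09 by limma).

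YTM1 (YOR272W) encodes the WD-repeat partner of Nop7 and Erb1 that Mdn1 pulls off the particle. Its signals at 20 min were 1606, 1569.9 and 1282 in the double deletion, 418, 389 and 369 in the pbf2 deletion, 487, 349.8 and 305 in the pbf1 deletion, and 337, 202 and 178 in the wild type. At 0 min they were 2238, 2086 and 2031 in the double deletion, 1653, 1486 and 1430.1 in the pbf2 deletion, 1806, 1793 and 1839 in the pbf1 deletion, and 1546, 1567 and 1299.7 in the wild type. The lowest double deletion array at 20 min lay close to the lowest wild type array at 0 min, and the wild type and pbf1 deletion overlapped at 20 min. The response difference was 2.16 ± 0.25 (adjusted p = 1.55e-06 by limma).

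NUG1 read 1596, 1726 and 1217 at 20 min in the double deletion, 425, 396 and 367 in the pbf2 deletion, 517, 395 and 333 in the pbf1 deletion, and 319, 241 and 204 in the wild type. At 0 min it read 2462, 2452 and 2397 in the double deletion, 2052, 1895 and 1834 in the pbf2 deletion, 2089, 2057 and 2188 in the pbf1 deletion, and 1889, 1849.8 and 1693 in the wild type. All arrays of both single deletions lay above those of the wild type at 20 min, and the double deletion lay far above both. The response difference was 2.15 ± 0.21 (adjusted p = 1.63e-07 by limma).

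NOP7 read 1069, 983 and 861 at 20 min in the double deletion, 330.1, 328 and 290.3 in the pbf2 deletion, 356, 266 and 223 in the pbf1 deletion, and 241, 189.7 and 153 in the wild type. At 0 min it read 3211, 3082 and 2649.6 in the double deletion, 2283, 2317 and 2188 in the pbf2 deletion, 2774, 2550.3 and 2704 in the pbf1 deletion, and 2347, 2237 and 2267 in the wild type. It still fell in the double deletion, and its 20 min arrays there did not reach any 0 min array. The response difference was 1.96 ± 0.20. NOP13, with much the same course, read 961, 1021 and 755 at 20 min in the double deletion, 316, 293 and 264 in the pbf2 deletion, 306, 233 and 206 in the pbf1 deletion, and 254, 169 and 140.1 in the wild type. At 0 min it read 3146, 3072 and 2884 in the double deletion, 2218, 2126 and 2001 in the pbf2 deletion, 2646, 2523 and 2579 in the pbf1 deletion, and 2351, 2246 and 2101 in the wild type. At 0 min the pbf2 deletion overlapped the wild type, and the pbf1 deletion and the double deletion lay above it. The response difference of NOP13 was 1.87 ± 0.23.

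RRP1 (YDR087C), a nucleolar factor of precursor RNA processing, was the gene whose double deletion stood furthest above the wild type at 0 min. It read 2182, 2239 and 1836 at 0 min in the double deletion, 1348, 1261 and 1142 in the pbf2 deletion, 1549, 1460.4 and 1467 in the pbf1 deletion, and 1258, 1228 and 1156 in the wild type. At 20 min it read 1476, 1414 and 1294 in the double deletion, 342, 318 and 323 in the pbf2 deletion, 363, 261 and 289.9 in the pbf1 deletion, and 293, 237 and 204 in the wild type. All 20 min arrays of the double deletion were above all 0 min arrays of the wild type. The response difference was 1.75 ± 0.17 (adjusted p = 1.34e-07 by limma).

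RIX7 (YLL034C), the AAA ATPase that removes Nsa1 from the early particle, read 923, 863 and 805 at 20 min in the double deletion, 306, 293 and 274 in the pbf2 deletion, 325, 232 and 204 in the pbf1 deletion, and 239, 159 and 143 in the wild type. At 0 min it read 1764, 1571 and 1403 in the double deletion, 1252, 1076 and 966 in the pbf2 deletion, 1398, 1248 and 1172 in the pbf1 deletion, and 1172, 1066 and 984 in the wild type. Neither the pbf2 deletion nor the double deletion overlapped the wild type at 20 min. The response difference of RIX7 was 1.74 ± 0.23. ARX1 (YDR101C), an export factor that covers the tunnel exit, read 2013, 1909.5 and 1344 at 20 min in the double deletion, 808, 618 and 663 in the pbf2 deletion, 806, 513 and 454 in the pbf1 deletion, and 549.7, 305 and 297 in the wild type. At 0 min it read 2653, 2535 and 2329 in the double deletion, 2036, 2045 and 2023 in the pbf2 deletion, 2209, 2209 and 2012 in the pbf1 deletion, and 1879, 1882 and 1571 in the wild type. At 0 min all 3 mutant strains lay above the wild type for ARX1, and at 20 min only the pbf1 deletion overlapped it. The response difference of ARX1 was 1.73 ± 0.29 (adjusted p = 0.000136 by limma).

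**Figure D2:**
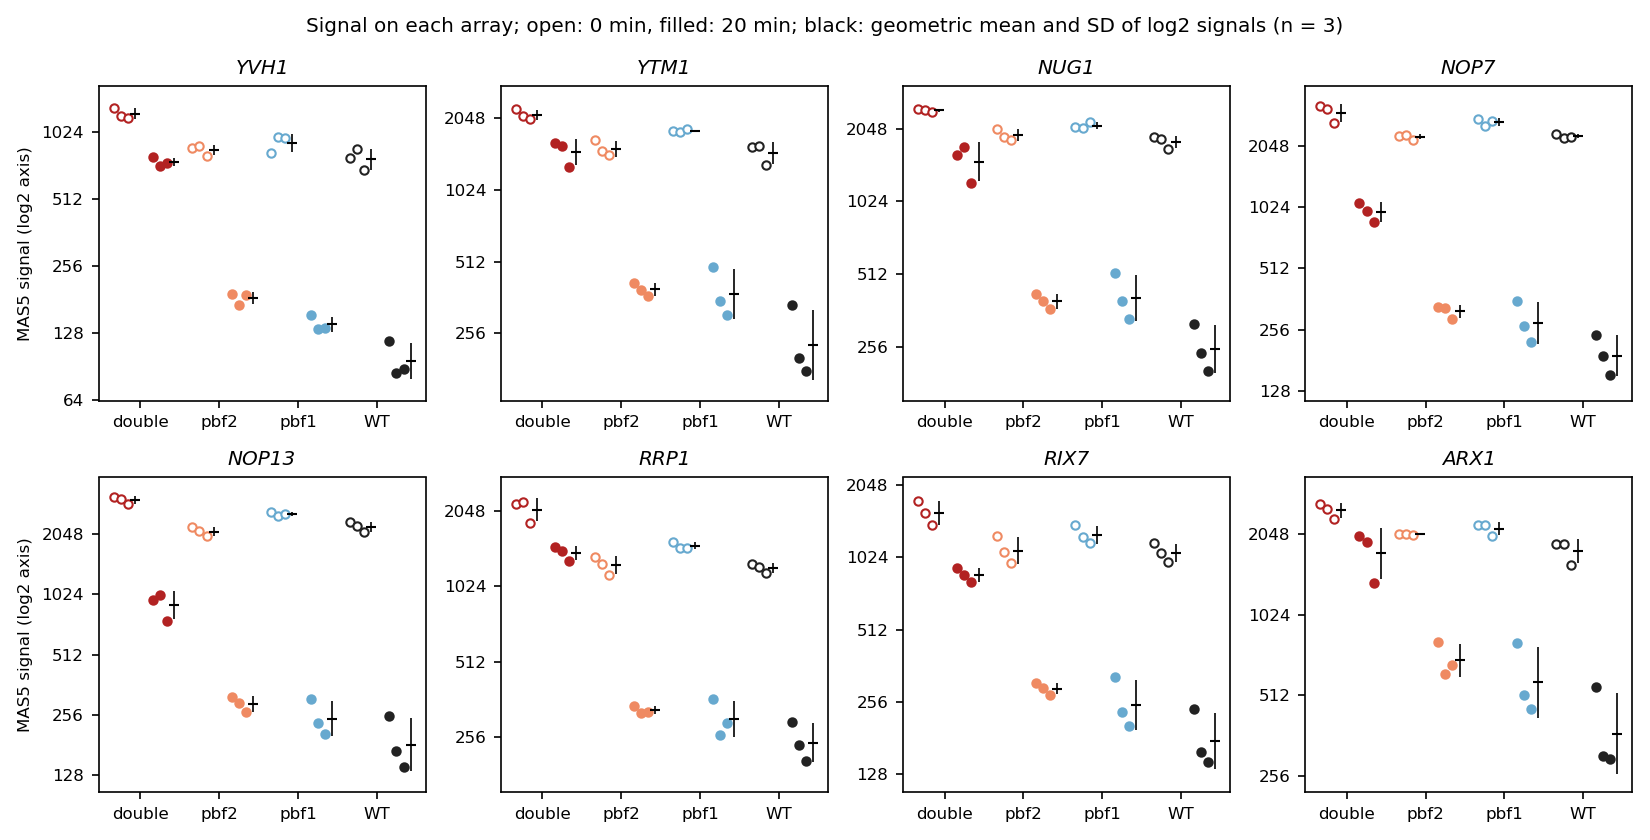
MAS5 signal (log2 axis, a separate range for each gene) on each array for the 8 genes with the largest response difference, with 3 arrays per strain at 0 min (open) and 20 min (filled) and, in black, the geometric mean with the SD of the log2 signals. Filled points of the double deletion lie above those of the other strains for all 8 genes, as for YVH1 with 725 to 789.8 against 84.6 to 118 in the wild type.

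Along the path of assembly, the response difference of the double deletion ran through every class. Among the methyltransferases it was 0.71 for SPB1, 1.12 for RRP8 and 1.60 for NOP2. In the Nop7 group the partners NOP7, ERB1 and YTM1 had 1.96, 1.64 and 2.16, while the factors at the foot of the internal spacer, NOP15, RLP7 and CIC1, had 0.96, 1.22 and 0.76, of which that of CIC1 did not pass. The 22 early nucleolar factors, all of which passed, ranged from 0.68 for URB1 to 1.87 for NOP13. Among them RPF2 and RRS1, which together load a small ribosomal RNA, had 1.60 and 1.18, and NOC2 and MAK21, which form a heterodimer, had 1.60 and 0.75.

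The nuclear factors were the most uneven class, from -0.14 for TIF6 to 2.15 for NUG1. Of the GTPases, NUG1, NOG1 and NOG2 had 2.15, 1.00 and 0.92, of which that of NOG2 did not pass. The Rix1 complex differed within itself, with 1.49 for RIX1, 0.90 for IPI1 and 0.35 for IPI3, the last of which did not pass. The AAA ATPases RIX7 and MDN1 had 1.74 and 1.44. Among export and cytoplasmic factors, YVH1, ARX1 and NMD3, the adaptor for the exportin Crm1, had 2.29, 1.73 and 1.56. MRT4, which holds the place of the stalk protein until Yvh1 removes it, had 0.90, the GTPase LSG1, which releases Nmd3, 0.88 and SQT1 0.58. Differences between genes were not tested.

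The 10 genes whose response difference did not pass were TIF6, NOP53, RSA1, IPI3, RLP24 and NOG2 of the nuclear factors, BUD20, ALB1 and REI1 of the export and cytoplasmic factors, and CIC1 of the Nop7 complex and processing factors. TIF6 (YPR016C), whose protein keeps the small subunit from joining the unfinished particle, read 1214, 1058 and 1013 at 20 min in the double deletion and 1485, 942 and 985 in the wild type. At 0 min TIF6 read 3290.1, 3703 and 2803 in the double deletion and 3067, 2731 and 3204 in the wild type. The strains overlapped at both times, and the response difference was -0.14 ± 0.22 (adjusted p = 0.664 by limma). TIF6 fell in every strain, and no smaller fall was seen in the double deletion.

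NOP53 (YPL146C), which brings the exosome's helicase to the particle, read 685, 569 and 515 at 20 min in the double deletion and 536, 543 and 609 in the wild type. Its 0 min signals were 1117, 1109.6 and 816 in the double deletion and 1014, 1069 and 907 in the wild type. These overlapped too, and the response difference was 0.05 ± 0.18 (adjusted p = 0.878 by limma). RSA1 (YPL193W), also known as a factor of snoRNP assembly, read 188, 133 and 133 at 20 min in the double deletion and 145, 112 and 103 in the wild type, with a response difference of 0.25 ± 0.23. IPI3 (YNL182C), of the Rix1 complex, read 531, 421 and 270.3 at 20 min in the double deletion and 343, 212 and 187 in the wild type, with a response difference of 0.35 ± 0.30. BUD20 read 1731, 1588 and 1346 at 20 min in the double deletion and 1031, 828 and 730.3 in the wild type. The BUD20 arrays did not overlap, and its response difference of 0.45 ± 0.18 (adjusted p = 0.071 by limma) passed without wild type replicate 1 at 20 min (0.59, adjusted p = 0.0151) and with the replicate number as a block within strains (adjusted p = 0.0333). It also passed without pbf1 deletion replicate 1 at 20 min (adjusted p = 0.0217) and without double deletion replicate 3 at 20 min (0.55, adjusted p = 0.0335). With quantile normalization the BUD20 response difference was 0.55 and passed as well (adjusted p = 0.0271 by limma).

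At 20 min the double deletion had more transcript than the wild type for 57 of the 60 genes and less for none, where 20.9% of all genes tested were called higher and 32.4% lower. The median difference was 1.47 on the log2 scale, or 2.77-fold, and 51 genes were at least 2-fold higher. Over all genes tested, the 95th percentile of the log2 difference was 1.03. The 3 double deletion arrays all lay above the 3 wild type arrays for 53 of the 60 genes, as they did for 21.4% of all genes; the reverse held for none of the 60 and for 34.5% of all genes. Without wild type replicate 1 at 20 min 58 genes passed, 54 of them at least 2-fold, and the arrays did not overlap for 59 (25.1% of all genes). Without double deletion replicate 3 at 20 min 57 passed, 54 of them at least 2-fold, and the arrays did not overlap for 56 (24.6% of all genes). YVH1 was 7.84-fold higher, YTM1 6.44-fold, NUG1 5.98-fold, RRP1 5.75-fold and NOP7 5.05-fold. The genes that did not pass were TIF6 (-0.03 ± 0.15), NOP53 (0.06 ± 0.13) and RSA1 (0.33 ± 0.16, adjusted p = 0.0879 by limma). Without wild type replicate 1 at 20 min RSA1 passed, at 0.48 and an adjusted p of 0.0213. RSA1 also passed with quantile normalization (0.65, adjusted p = 0.00807 by limma) and with the replicate number as a block (adjusted p = 0.0173).

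Before heat shock the difference was in the same direction but smaller. The double deletion was above the wild type for 21 of 60 genes at 0 min, where 8.47% of all genes tested were called higher and 16% lower, and no gene of the 60 was called lower. The fitted difference was above 0 for all 60, with a median of 0.37 (1.30-fold) and a range of 0.01 to 0.78. The double deletion arrays all lay above the wild type for 45 genes, as for 15.7% of all genes, and all below for none, as for 23.7%. Without double deletion replicate 3 at 0 min the double deletion arrays lay above for 58 genes, as for 24.3% of all genes, and 22 genes passed the test, as they did without that replicate at 20 min. The largest differences were those of RRP1 (0.78 ± 0.12, adjusted p = 7.56e-05 by limma), RSA4 (0.77 ± 0.28), YVH1 (0.68 ± 0.11), SDA1 (0.58 ± 0.20) and RIX7 (0.55 ± 0.16). The count of 21 moved with single arrays: it was 34 without wild type replicate 1 at 20 min, 12 without wild type replicate 2 and 8 without wild type replicate 3 at 0 min, and 8 and 9 without double deletion replicates 1 and 2 at 0 min. The call on RSA4, at an adjusted p of 0.048, was lost with any 1 of 16 arrays left out, with adjusted p between 0.0506 and 0.188. That on SDA1 was lost without any wild type array at 0 min or double deletion replicate 1 or 2 at 0 min, with adjusted p between 0.0598 and 0.123. That on RIX7 was lost without wild type replicate 3 (adjusted p = 0.0748) or double deletion replicate 1 (0.0814) at 0 min.

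Set side by side, 20 of the 60 genes (33.3%) were higher in the double deletion at 0 min, at 20 min and in the response difference, as were 3.6% of all genes tested. A further 30 (50%) were called higher at 20 min and in the response difference but not called at 0 min, against 8.51% of all genes. At 20 min alone 6 (10%) were called, against 5.91% of all genes, and at both times but not in the response difference 1 (1.67%), against 2.37%. The remaining 3 (5%) were TIF6, NOP53 and RSA1, and 38.5% of all genes were called in none of the comparisons. The difference from the wild type was larger at 20 min than at 0 min for 59 of the 60. These comparisons share the wild type and double deletion arrays, and a gene called at only one time is not shown to differ between times except by the response difference.

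**Figure D3:**
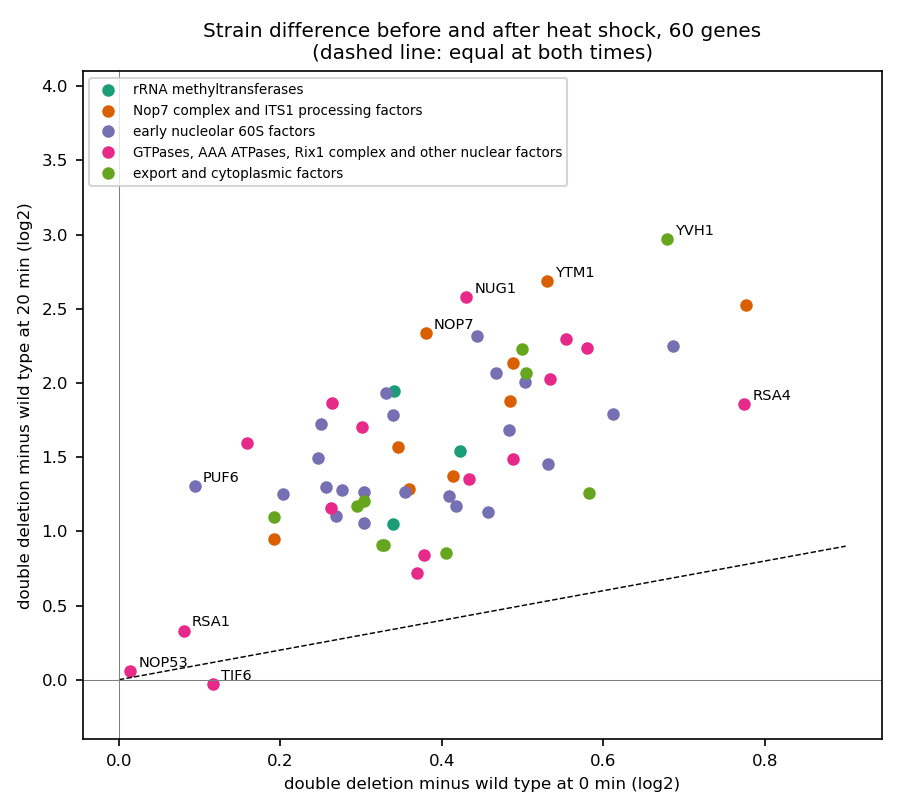
Log2 difference between the double deletion and the wild type at 0 min (x axis) and at 20 min (y axis) for each of the 60 genes, coloured by class, with the line of equality. The medians are 0.37 at 0 min and 1.47 at 20 min, and nearly all points lie above the line.

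The single deletions were set against the wild type in the same way. At 20 min the pbf2 deletion was above the wild type for 33 of 60 genes and below it for none, where 8.64% of all genes tested were called higher and 4.62% lower, with a median difference of 0.52 (1.44-fold). By class these were 2 of 3 methyltransferases, 6 of 9 Nop7 complex and processing factors, 17 of 22 early factors, 4 of 16 nuclear factors and 4 of 10 export and cytoplasmic factors. The largest differences were those of YVH1 (0.94 ± 0.11, adjusted p = 1.31e-05 by limma), ARX1 (0.91 ± 0.20), RRS1 (YOR294W), which helps bring in a small ribosomal RNA (0.82 ± 0.23), YTM1 (0.77 ± 0.17) and MAK16 (YAL025C), an early nucleolar factor (0.76 ± 0.24). The pbf2 deletion arrays all lay above the wild type for 34 genes and below it for none, against 15.8% of all genes in each direction, and for 56 without wild type replicate 1, as for 26.6% of all genes. The count of 33 was 51 without wild type replicate 1 at 20 min, 20 without replicate 2 and 9 without replicate 3 of the same group, and 20 without pbf2 deletion replicate 1 at 20 min. Without wild type replicate 3, the calls on ARX1 (adjusted p = 0.0509), RRS1 (0.185), YTM1 (0.0585) and MAK16 (0.281) were lost. Those on RRS1 (adjusted p = 0.103) and MAK16 (0.106) were also lost without wild type replicate 2. Leaving out pbf2 deletion replicate 1, 2 or 3 at 20 min gave adjusted p values of 0.0897, 0.0593 and 0.0506 for RRS1 and 0.125, 0.0861 and 0.0769 for MAK16, and leaving out pbf2 deletion replicate 2 at 0 min gave 0.0502 for MAK16.

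In the response, the pbf2 deletion differed from the wild type for 1 gene of the 60, where 1.5% of all genes tested were called higher and 0.204% lower. This was YVH1, with 0.80 ± 0.15 (adjusted p = 0.00843 by limma). The median over the 60 was 0.50, and 35 had an unadjusted p under 0.05, as did 15.1% of all genes. The count called was 9 with the replicate number as a block within strains. It was 26 without wild type replicate 1 at 20 min, 3 and 2 without pbf1 deletion replicates 1 and 3 at 20 min, and 2 without double deletion replicate 3 at 20 min. At 0 min none of the 60 was called in the pbf2 deletion in either direction, where 0.204% of all genes were called higher and 0.0371% lower, and the median difference was 0.02 with a range of -0.17 to 0.24. No gene of the 60 had an unadjusted p under 0.05 there, against 5.78% of all genes.

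In the pbf1 deletion at 20 min, 2 genes were above the wild type, where 0.278% of all genes tested were called higher and 0.352% lower. They were NUG1 (0.71 ± 0.15, adjusted p = 0.0321 by limma) and YVH1 (0.55 ± 0.11, adjusted p = 0.0223). The median was 0.34, or 0.57 without wild type replicate 1, and 32 genes had an unadjusted p under 0.05, as did 10.8% of all genes. With the replicate number as a block 15 genes passed. Without the block, the count was 22 without wild type replicate 1 at 20 min, 0 without wild type replicate 2 or 3 or pbf1 deletion replicate 1, 1 without pbf1 deletion replicate 2 and 5 without pbf1 deletion replicate 3, all at 20 min. The response of the pbf1 deletion differed from the wild type for none of the 60 by limma, with a median difference of 0.15 and 1 gene at an unadjusted p under 0.05. That median was 0.35 without wild type replicate 1 at 20 min and -0.08 with spike-in centring. None of the 5395 genes was called in that comparison (0%), and 183 had an unadjusted p under 0.05.

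At 0 min none of the 60 genes was called in the pbf1 deletion by limma, where 0.0371% of all genes were called higher and 0.0741% lower. An unadjusted p under 0.05 was found for 6 of the 60 and for 7.67% of all genes. The fitted difference was above 0 for 59 of the 60, with a median of 0.20 (1.15-fold), against a median of -0.03 over all genes. All 3 pbf1 deletion arrays lay above all 3 wild type arrays for 38 genes, as they did for 5.71% of all genes, and all lay below for 1 gene, as for 11.3%. The corresponding count in the pbf2 deletion at 0 min was 2 genes above, as for 7.93% of all genes, and 1 below, as for 6.06%.

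Both single deletions were set against the double deletion. At 20 min the double deletion was above the pbf1 deletion for 56 of 60 genes, with a median of 1.11, and below it for none (backgrounds 19.9% higher and 28% lower). It was above the pbf2 deletion for 53 of 60, with a median of 0.99, and below it for none (backgrounds 20.7% higher and 30.1% lower). RRP1 and YVH1 led both, at 2.21 and 2.42 over the pbf1 deletion and 2.09 and 2.03 over the pbf2 deletion. YTM1 followed with 1.99 and 1.92, and NOP13 with 1.89 and 1.64. SDA1 was 1.88 above the pbf1 deletion and NUG1 1.92 above the pbf2 deletion. In the response, the double deletion was above the pbf1 deletion for 44 genes (median 0.93) and above the pbf2 deletion for 33 (median 0.59), and below either for none. The backgrounds were 12.6% higher and 11.8% lower against the pbf1 deletion, and 11.2% higher and 9.53% lower against the pbf2 deletion. Without 1 of the arrays that stood apart, these counts were 56 to 57 and 53 to 57 at 20 min, and 42 to 47 and 29 to 35 in the response. The largest response differences from the pbf1 deletion were those of YVH1 (1.98), YTM1 (1.76), RRP1 (1.73), NUG1 (1.67) and NOP7 (1.66). From the pbf2 deletion they were those of NUG1 (1.58), YVH1 (1.49), MDN1 (1.45 ± 0.22), YTM1 (1.44) and RRP1 (1.35).

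For most of the 60 genes the double deletion lay above the level that the single deletions would give if their log2 differences added. This excess at 20 min passed the test for 32 genes and was negative past the test for none, where 12.3% of all genes tested were called above the sum and 15.1% below it. Its median was 0.66, the fitted excess was above 0 for 59 genes, and 17 genes were at least 2-fold above the sum. Over all genes tested, the 95th percentile of the log2 excess was 0.70. The median sum of the single deletions' differences was 0.87, against 1.47 in the double deletion. Those called were 1 methyltransferase, 7 Nop7 complex and processing factors, 12 early factors, 6 nuclear factors and 6 export and cytoplasmic factors. The excess was largest for RRP1 (1.77 ± 0.17, adjusted p = 2.94e-07 by limma), YVH1 (1.47 ± 0.15), MDN1 (1.40 ± 0.22), ERB1 (1.27 ± 0.30) and YTM1 (1.22 ± 0.25). Since the wild type enters the sum with each single deletion, leaving out its replicate 1 at 20 min gave 29 genes and a median excess of 0.49, with 5 genes at least 2-fold above the sum and 52 fitted above 0. Leaving out double deletion replicate 3 at 20 min gave 39 genes and a median of 0.81.

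MDN1 (YLR106C), named REA1 in the current yeast annotation, encodes the giant AAA ATPase that strips Ytm1 and Rsa4 from the particle. Its signals at 20 min were 1249.8, 1388 and 1424 in the double deletion, 375, 462 and 485 in the pbf2 deletion, 409.8, 603 and 577 in the pbf1 deletion, and 327, 456 and 597 in the wild type. At 0 min they were 2976, 2878 and 2773 in the double deletion, 2507, 2618 and 2499.6 in the pbf2 deletion, 2917, 2819.6 and 2736 in the pbf1 deletion, and 2738, 2628 and 2371 in the wild type. Both single deletions overlapped the wild type at 20 min, and the double deletion lay above all of them. For MDN1, unlike 58 of the 60, the lowest wild type array at 20 min was that of replicate 1.

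**Figure D4:**
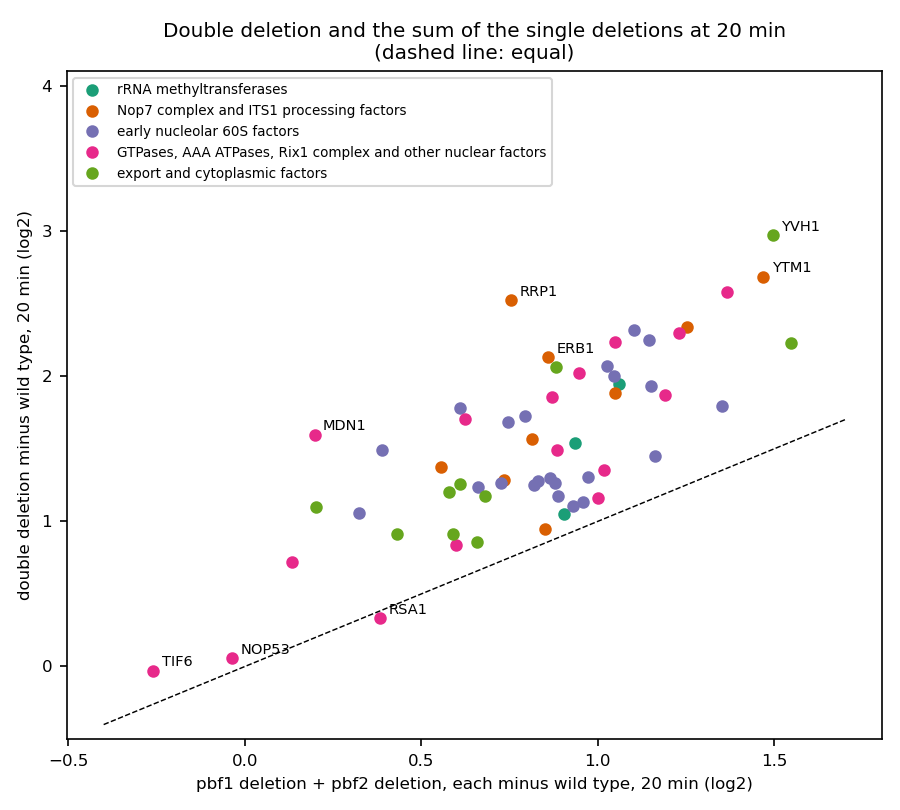
Sum of the pbf2 and pbf1 deletions' log2 differences from the wild type at 20 min (x axis) and the double deletion's own difference (y axis) for each of the 60 genes, coloured by class, with the line of equality. Both axes use the same 3 wild type arrays, the medians are 0.87 for the sum and 1.47 for the double deletion, and 59 of 60 points lie above the line.

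SSF1 (YHR066W) and SSF2 (YDR312W) are close paralogues whose proteins act in the same early nucleolar step, and their probe sets may share transcripts, so each value is uncertain by an amount that was not tested. SSF1 read 601, 549 and 511 at 20 min in the double deletion, 238, 148 and 165 in the pbf2 deletion, 262, 139 and 126 in the pbf1 deletion, and 186, 93.9 and 89.7 in the wild type. At 0 min SSF1 read 927, 794 and 667 in the double deletion and 584, 509 and 396 in the wild type. Its double deletion arrays lay above the wild type at both times, and its heat shock change was -0.51 ± 0.27 in the double deletion, -1.51 in the pbf2 deletion, -1.87 in the pbf1 deletion and -2.08 in the wild type. SSF2 read 422, 394 and 389.8 at 20 min in the double deletion, 264, 260.4 and 239 in the pbf2 deletion, 200.5, 207 and 200.0 in the pbf1 deletion, and 184, 157 and 162 in the wild type. At 0 min SSF2 read 294, 275 and 206 in the double deletion and 226, 216 and 182 in the wild type.

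SSF2 was the only one of the 60 to rise in heat shock in the double deletion, by 0.65 ± 0.11 (adjusted p = 2.34e-05 by limma). It was fitted at 0.06 ± 0.11 in the pbf2 deletion (adjusted p = 0.623), -0.19 ± 0.11 in the pbf1 deletion and -0.31 in the wild type. Without pbf1 deletion replicate 3 at 0 min the change in the pbf1 deletion was -0.29 and passed (adjusted p = 0.0294). SSF2 also passed as a fall in the pbf1 deletion under every other scaling (adjusted p at most 0.0238 by limma). There it changed by -0.58 with quantile normalization, -0.39 with median centring, -0.47 with hybridization control centring and -1.41 with spike-in centring. Its 3 double deletion arrays at 20 min lay above those at 0 min. Under poly(A) spike-in centring, which also lowers the median of all genes in this contrast to -0.94, the SSF2 change in the double deletion was -0.49 and did not pass. It did not pass with hybridization control centring either, at 0.38 (adjusted p = 0.0633). The response difference of SSF2 from the wild type was 0.96 ± 0.16 and that of SSF1 1.56 ± 0.38.

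Other genes of ribosome assembly were set beside the 60, from lists chosen by function. In the response difference used here, 15% of all genes tested were called higher and 12.8% lower. Of 32 further 60S assembly genes, mostly helicases, nucleases and chaperones, the response difference of the double deletion from the wild type was positive past the test for 26 and negative for 1, with a median of 1.00. DRS1, a helicase (2.01), and MTR4, the exosome's helicase (1.93), led, and REH1, a cytoplasmic paralogue of REI1, was negative at -0.41. Of 60 genes for 40S assembly it was positive for 45 and negative for 1, with a median of 1.00, led by FAF1 (2.60) and LTV1 (2.53), with UTP22 at -0.60. Of 75 genes for 60S ribosomal proteins it was positive for 24 and negative for 3, with a median of 0.15. RPL9A (0.70) and RPL26A (0.59) were the most positive of those that passed, and RPL9B (-0.58) and RPL36A (-0.49) the most negative of them.

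The ribosomal protein genes fell in heat shock in both strains. Of the 75, 73 fell in the double deletion with a median of -1.81, and 74 fell in the wild type with a median of -1.97. Among all genes tested, 30.9% were called lower in the double deletion and 29.7% in the wild type. The corresponding medians of the 60 assembly factor genes were -0.88 and -2.07, those of the 40S assembly genes -0.72 and -1.76, and those of the further 60S assembly genes -0.74 and -1.62. At 0 min the double deletion was above the wild type for 0 of 75 ribosomal protein genes by limma, 24 of 60 40S assembly genes and 16 of 32 further 60S assembly genes. The share of all genes tested called higher there was 8.47%. The difference between these lists and the 60 genes was not tested.

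**Figure D5:**
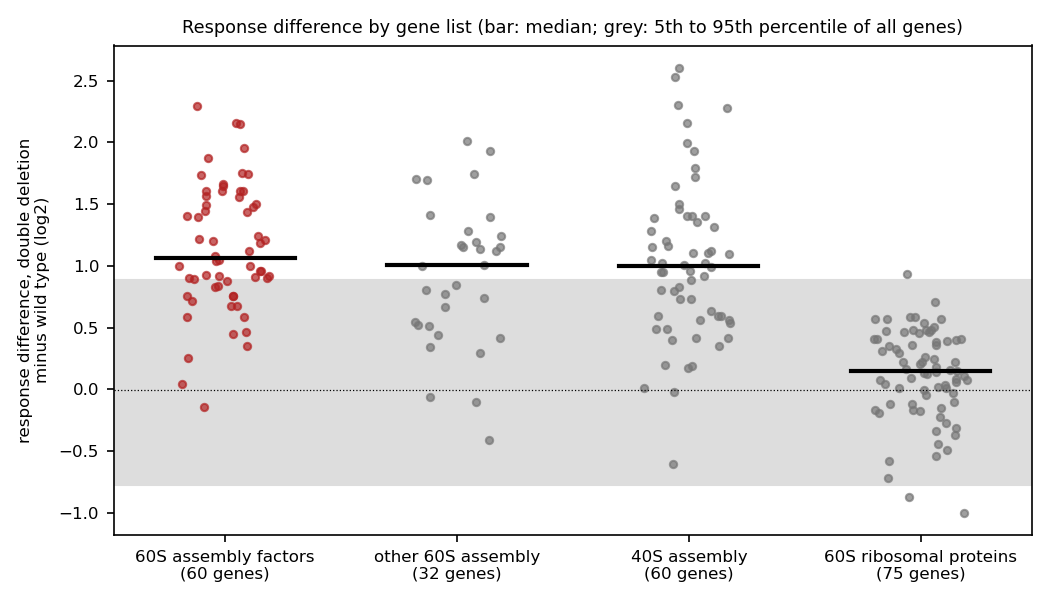
Response difference (double deletion minus wild type, log2) of each gene, one point per gene, for the 60 assembly factor genes, the further 60S assembly genes, the 40S assembly genes and the 60S ribosomal protein genes. Black bars are medians, and the grey band spans the 5th to 95th percentile of all genes tested. The medians are 1.06, 1.00, 1.00 and 0.15 for the 4 lists.

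Some of these genes lie next to each other in the genome. In the gene order of the R64 annotation, 9 of the pairs of direct neighbours joined one of the 60 genes and a gene of another list. NSA2, for a nuclear maturation factor, and LCP5, a 40S factor, start from a shared intergenic region, and their response differences were 1.40 ± 0.30 and 0.83 ± 0.26. BUD20 and RPL10 also do, with 0.45 ± 0.18 and 0.47 ± 0.10. Among neighbours read in the same direction, RIX1 had 1.49 ± 0.29 and UTP9 0.56 ± 0.35 (adjusted p = 0.244 by limma), PWP1 had 1.40 and NOP56 0.64, NOC3 1.60 and CMS1 0.88, RSA3 1.24 and UTP13 1.10, and NOG2 0.92 ± 0.44 and ESF2 1.31. The convergent pairs were RIX7 with 1.74 and GRC3 with 0.74, and RRP15 with 0.83 and NOC4 with 1.10.

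The authors' deposited table of log2 ratios of 20 min over 0 min, made with another normalization, holds all 60 genes. In the authors' deposited table the median ratio of the 60 was -0.90 in the double deletion, -1.67 in the pbf2 deletion, -2.11 in the pbf1 deletion and -2.31 in the wild type. All 60 wild type ratios in the authors' deposited table were below 0, and for 59 of 60 genes the double deletion's ratio was the higher of the pair. The largest gap between a wild type ratio in the authors' deposited table and the fitted change was 0.59.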

How the data were processed

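Total RNA (5 µg per sample) was hybridised to Affymetrix Yeast Genome 2.0 arrays, and signals were made with MAS5, per the submitters' processing notes. The deposited values are intensity signals on a linear scale, with a trimmed mean of 500.3 to 500.4 on every array when 2% of probe sets are removed at each end. The authors also deposited a log2 ratio for each strain (20 min over 0 min) with false discovery rates as p-values, made by the GoldenSpike procedure per the deposited read-me. The ratios were used for comparison and the p-values were not used.

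Of 10928 probe sets, 7244 had 1 gene name and 5498 matched a gene of the R64 RefSeq table, giving 5449 genes. Where a gene had several probe sets (47 genes), the one with the highest mean was kept. Genes with a mean log2 signal above 2.35 were tested (5395). An array's background was the 95th percentile of the 1746 probe sets that match no yeast gene of the table, 9.02 to 11.6. The median gene signal was 453 to 572 per array. The number of arrays limits precision.

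Log2 signals, with no pseudocount, were fitted with limma 3.58.1 in R 4.3.3 (8 group means, eBayes with trend, 16 residual degrees of freedom), two-sided, with Benjamini-Hochberg adjustment over all genes tested and a threshold of 0.05. SE is the fit's standard error. On data simulated for the response difference of the double deletion over 5395 genes, the fit recovered 47% of 100 genes changed by 0.5 and 86% of 100 changed by 1 on the log2 scale, with 3 false calls. The simulated noise was independent between arrays, without shifts shared by replicate number. Far fewer genes were changed than were called in the data (809 higher and 689 lower). These figures therefore do not give the recovery or false calls in the data. No set test was made, and lists are described by counts and medians.

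Cultures were split between the 2 times, per the labels' protocols, so same-numbered samples of a strain were taken to share a culture, which no label states per sample. Their deviations from the group means correlated by -0.04 to 0.19. Between strains at 20 min, same-numbered deviations correlated by 0.27 to 0.65 for the pbf1 deletion and the wild type and by 0.21 to 0.46 for the pbf2 deletion and the wild type. For the double deletion the range was 0.03 to 0.37 with the wild type, 0.15 to 0.36 with the pbf1 deletion and 0.05 to 0.20 with the pbf2 deletion. Between the single deletions it was 0.10 to 0.47. Replicate numbers were therefore also taken as pairs, from the data alone. Whether the cultures were independent is not stated beyond triplicate growth, so p-values measure the spread between these samples. Named genes are the 8 largest changes in each direction, among those that passed, for the wild type's heat shock and for the response difference of the double deletion, the 5 largest for other comparisons, members against the common direction, up to 5 that did not pass, and the 2 largest per direction in other lists; SSF1, RSA1, BUD20, IPI3 and MDN1 signals, and the neighbour pairs, were added after their values were seen. The counts of non-overlapping arrays without an array that stood apart, and the share of the fall under other scalings, were added after seeing the data. The members, lists and tests were chosen with earlier results of these data known.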

Additional observations from a re-analysis of the deposited data

Results flagged for a closer look

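These results stand out because the heat shock response differed between strains by a test of the difference itself (limma, adjusted over all genes tested). Of the 60 assembly factor genes, the response was higher than in the wild type for 50 in the double deletion (15% of all genes tested) and for 1 in the pbf2 deletion, a share near the 1.5% of all genes. The double deletion's response was higher than that of the pbf1 deletion for 44 (12.6% of all genes) and than that of the pbf2 deletion for 33 (11.2%). Against the wild type, the log2 differences of the double deletion were 2.29 for YVH1, 2.16 for YTM1, 2.15 for NUG1, 1.96 for NOP7, 1.87 for NOP13, 1.75 for RRP1, 1.74 for RIX7 and 1.73 for ARX1. The difference of the pbf2 deletion was 0.80 for YVH1. Against the pbf1 deletion, those of the double deletion were 1.98 for YVH1, 1.76 for YTM1, 1.73 for RRP1, 1.67 for NUG1 and 1.66 for NOP7. Against the pbf2 deletion they were 1.58 for NUG1, 1.49 for YVH1, 1.45 for MDN1, 1.44 for YTM1 and 1.35 for RRP1. These comparisons share arrays. What lies behind the differences was not tested.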

How the results depend on the processing

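Medians moved with the scale as given beside them. The shares of all genes called are those of the main fit on 24 arrays. They were not set beside counts under other settings or left-out arrays, so part of a moved count may be a moved background. Counts of the 60 genes that fell in each strain, and of those raised over the wild type at 20 min in the double deletion, stayed within 1.5 times the reported count under every alternative run. Spike-in centring, whose 12 probe sets set the scale of each array, gave 0 genes for the double deletion's response against the wild type, the pbf1 deletion and the pbf2 deletion, 0 for its difference from the wild type at 0 min, 0 for its excess over the sum of the single deletions, 0 for the pbf2 deletion's response and 20 min difference and 0 for the pbf1 deletion at 20 min. It gave 30 and 24 for the double deletion over the pbf1 and pbf2 deletions at 20 min. Hybridization control centring gave 16 for the double deletion's response against the pbf2 deletion, 5 for its 0 min difference, 19 for its excess, 0 for the pbf2 deletion's response and 0 for the pbf1 deletion at 20 min. Quantile normalization gave 11 for the double deletion at 0 min and 6 for the pbf1 deletion at 20 min. Fitting only the groups compared gave 42 for the double deletion at 0 min, 7 for the pbf2 deletion and 0 for the pbf1 deletion at 20 min, and 2 for the pbf2 deletion's response. The replicate block gave 9 for the pbf2 deletion's response, 15 for the pbf1 deletion at 20 min and 40 for the double deletion at 0 min, and moved no other count by over 1.5 times. For heat shock changes and responses this block was the replicate number within each strain. For strain differences at 1 time it was the replicate number common to all strains and both times. Neither block takes up a shift of a replicate number that differs between 0 and 20 min. For the double deletion and the wild type at 0 min, same-numbered deviations correlated by -0.03 to 0.20 and 4 of 6 samples correlated best with their own number. Across strains the number went with a shared shift of the 60 genes: replicate 1 had the highest median at 20 min and the smallest fall in 4 of 4 strains, and replicate 3 the lowest median at 0 min in 4 of 4. The cause of these shifts was not tested. Leaving out 1 array at a time gave 1 to 26 genes for the pbf2 deletion's response, 8 to 34 for the double deletion at 0 min, 0 to 22 for the pbf1 deletion and 9 to 51 for the pbf2 deletion at 20 min, and 45 to 56 for the double deletion's response. Among single genes, the called rise of SSF2 in the double deletion's heat shock turned to -0.49 with spike-in centring. Values that had not passed changed sign for SSF2 in the pbf2 deletion's heat shock (-0.30 with quantile normalization, -0.14 with median centring, -0.18 with hybridization control centring, -0.66 with spike-in centring), NOP53 in the response difference (-0.043 with median centring, -0.10 with spike-in centring) and TIF6 at 20 min (0.073 with hybridization control centring, 0.18 with spike-in centring). With 1 array left out, JJJ1 in the double deletion's heat shock ranged from -0.24 to 0.048, NOP53 from -0.10 to 0.14 in the response difference and -0.053 to 0.15 at 20 min, and TIF6 from -0.26 to 0.064 and -0.15 to 0.18. Of 910 values of named genes under other settings, 822 kept direction and side of the threshold, 55 lost and 24 gained the call, and 9 changed sign. The promoter motif comparison was not run.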
